A study of Homo sapiens with 6 samples.

Results

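DNA glycosylases are the enzymes that open base excision repair, and 10 of them were followed here in HCCC9810 cells, an established human cholangiocarcinoma (CCA) line that the labels describe as wild type. The members were taken by gene symbol as a family of enzymes, with earlier results of these data known: UNG, SMUG1, TDG and MBD4, which remove uracil or mispaired thymine, MUTYH, which removes adenine set opposite 8-oxoguanine, and OGG1, NTHL1, NEIL1, NEIL2 and NEIL3, which remove oxidized bases. All 10 were among the 19470 genes of the count table, and all 10 passed the filter on low counts that left 13066 genes for testing. RNA was sequenced from 3 libraries of cells exposed to 20 μM isolinderalactone (ILL, a sesquiterpenoid lactone) and 3 libraries of cells given the vehicle, DMSO, each for 24 h. No source used here says whether the 3 libraries of a group came from separate cultures, so p-values measure the spread between libraries, which may be technical.

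A glycosylase flips a damaged or wrong base out of the DNA helix and cuts the bond that holds it to the sugar. The abasic (AP) site that is left is then opened by an AP endonuclease, filled by a DNA polymerase and sealed by a ligase, either as a patch of 1 nucleotide or, through replication proteins, as a longer patch. UNG is known to act on uracil built in at replication forks, and NEIL3 is known for its expression in dividing cells. MUTYH and NEIL1 are also linked to replication, as described below. Members differ in chemistry as well: OGG1, NTHL1 and the NEIL enzymes can also nick the DNA strand after base removal, whereas UNG, SMUG1, TDG, MBD4 and MUTYH leave the strand intact.

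The libraries held between 34282764 and 37758569 counts. The 6 biliary epithelial markers (KRT7, KRT19, KRT8, KRT18, EPCAM and SOX9) summed to between 8805 and 9034 CPM (read counts scaled to a common library size with edgeR's TMM factors) in control libraries and between 8524 and 9016 CPM in ILL libraries, with 4 called lower, 2 called higher and no log2 fold change outside -0.82 to 0.64. Of 10 markers of hepatocytes, immune cells, endothelium and fibroblasts, 6 were tested and 4 were called higher with ILL, among them CD68, which codes for a lysosomal membrane protein, at 37.8 ± 2.67 CPM in control and 113 ± 3.41 CPM in ILL libraries (SD, n = 3). The summed level of these markers was 52.3 to 61.7 CPM in control and 134 to 143 CPM in ILL libraries, with most of the difference in CD68. Also called higher were ALB of hepatocytes (log2 fold change 0.69, with overlap between groups) and COL1A1 of fibroblasts (0.55). VWF of endothelium was called higher as well (2.05, a change of more than 2-fold). It had 2, 13 and 0 counts in control and 25, 23 and 13 counts in ILL libraries. VWF passed the filter on low counts through its ILL libraries, so its call is not independent of that filter. APOA1 and PECAM1 were not called, PTPRC, the marker shared by leukocytes, had 0 to 9 counts in a library, and CD3E, COL3A1 and DCN had at most 3 counts in any library. Beside these counts, 36.9% of all tested genes were called lower with ILL and 36.2% higher. The part of other cell types in the results was not tested.

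Transcripts of 8 of the 10 glycosylases fell with ILL, 1 rose (SMUG1) and 1 (NEIL1) did not pass the test. Calling a gene required an adjusted p under 0.05 in the quasi-likelihood test of edgeR, with Benjamini-Hochberg adjustment over the whole table. Over all tested genes, 36.9% were called lower and 36.2% higher, so calls in themselves were common in this comparison. With the fold change cutoffs of the study (above 2 or under 0.5), 2 members, NEIL3 and UNG, were differentially expressed genes (DEGs) lower with ILL, against 11.4% of all tested genes, and 0 were DEGs higher with ILL, against 12.5%. All 3 ILL libraries lay below all 3 control libraries for 7 members (background 38.0%) and above them for 1 (background 37.5%). The median log2 fold change of the 10 members was -0.41, and that of all tested genes was -0.0012.

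**Figure D1:**
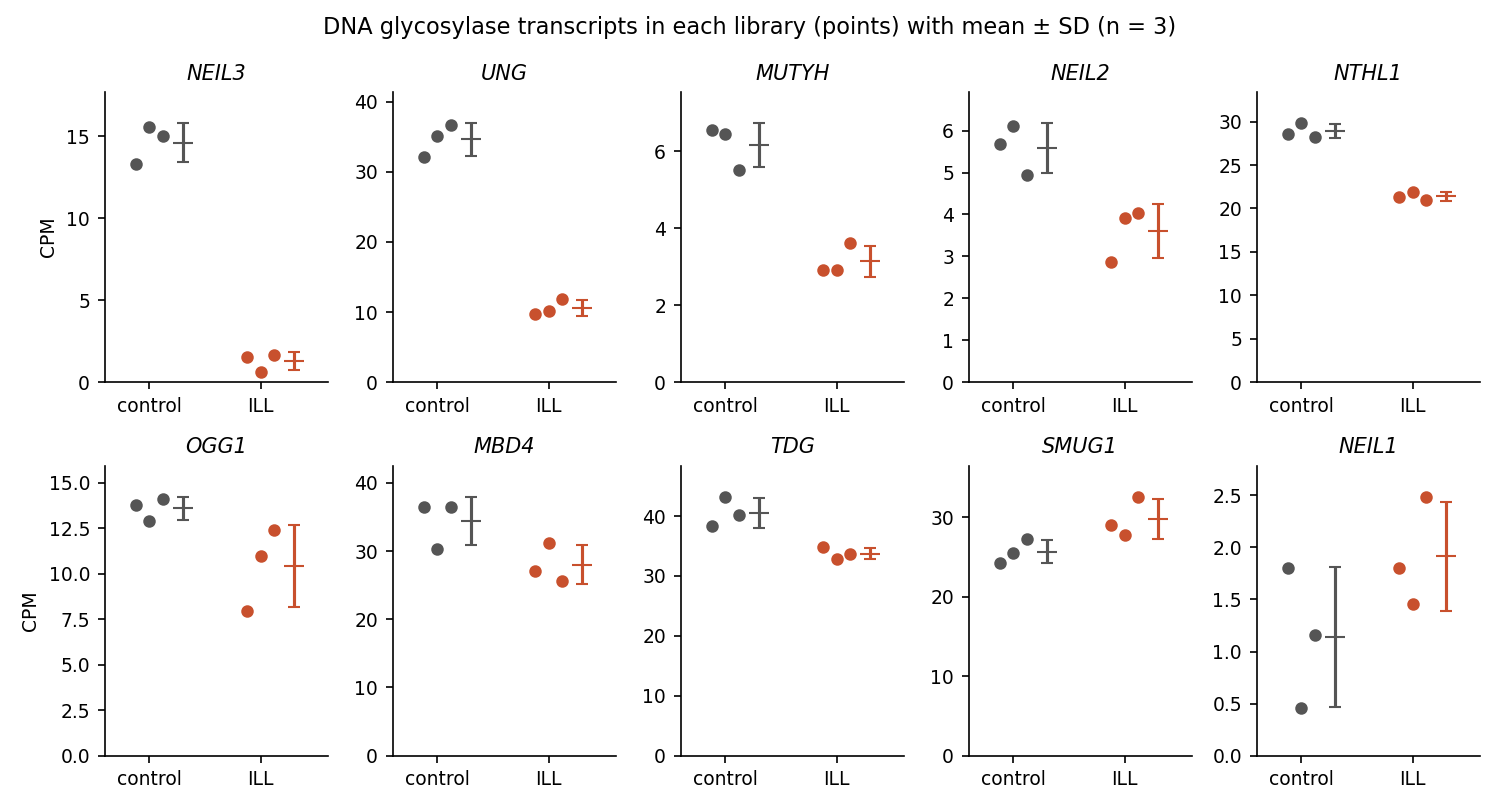
Transcript level (y axis, CPM, from 0) of each glycosylase gene in the control and ILL libraries (x axis). Points are single libraries and the bars beside them are the mean ± SD over 3 libraries. Groups are separated for NEIL3, UNG, MUTYH, NEIL2, NTHL1, OGG1, TDG and SMUG1, and overlap for MBD4 and NEIL1.

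NEIL3, which removes oxidized hydantoin bases and also unhooks certain interstrand crosslinks, had the largest change of the family. The control libraries held 516, 547 and 531 NEIL3 reads, and the ILL libraries 53, 22 and 59. On the CPM scale these were 13.3, 15.6 and 15.01 in control and 1.51, 0.639 and 1.69 in ILL libraries. Every ILL library was far below every control library, with ILL replicate 2 the lowest. The log2 fold change was -3.51 (standard error, SE, of 0.21 and edgeR adjusted p of 1.3e-13), which places the ILL level at 8.79% of control (95% confidence interval 6.53% to 11.8%). Only 0.214% of all tested genes had a lower log2 fold change. Leaving out 1 library at a time gave values from -3.75 to -3.19.

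UNG encodes the main uracil-DNA glycosylase, in a nuclear and a mitochondrial form made from different starts of the same gene. It was at 32.1, 35.1 and 36.7 CPM in control libraries and at 9.74, 10.2 and 11.8 CPM in ILL libraries, and no ILL library reached the lowest control value. The log2 fold change was -1.71 (SE 0.10 and edgeR adjusted p of 3.9e-14), or 30.6% of control (95% confidence interval 26.7% to 35.1%). Counts per gene symbol do not separate the nuclear from the mitochondrial transcript, so the fall is that of both together.

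The sequences just before the starts of these genes are shown because NEIL3 and UNG were the members that changed most, and because several classes of cell-cycle promoter are read through short motifs there. They are the 250 bases before each start, 5′ to 3′, from RefSeq on GRCh38.p14, all on the + strand, with matches to the E2F motif (TTTCCCGC, TTTCGCGC, TTTGCCGC or TTTGGCGC) and to the CHR (cell cycle genes homology region) motif TTTGAA in capitals on either strand:
NEIL3, chr4:177309624-177309873: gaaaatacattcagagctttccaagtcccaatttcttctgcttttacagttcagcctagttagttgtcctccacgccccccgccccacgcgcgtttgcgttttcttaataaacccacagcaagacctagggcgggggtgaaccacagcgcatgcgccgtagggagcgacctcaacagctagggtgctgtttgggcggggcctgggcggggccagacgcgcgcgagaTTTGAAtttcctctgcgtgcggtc
UNG, first start, chr12:109097347-109097596: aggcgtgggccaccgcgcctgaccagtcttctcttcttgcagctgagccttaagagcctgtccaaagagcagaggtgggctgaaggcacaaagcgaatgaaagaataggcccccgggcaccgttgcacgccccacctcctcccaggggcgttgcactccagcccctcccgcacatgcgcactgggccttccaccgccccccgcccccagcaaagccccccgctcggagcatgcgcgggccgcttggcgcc
UNG, second start, chr12:109097922-109098171: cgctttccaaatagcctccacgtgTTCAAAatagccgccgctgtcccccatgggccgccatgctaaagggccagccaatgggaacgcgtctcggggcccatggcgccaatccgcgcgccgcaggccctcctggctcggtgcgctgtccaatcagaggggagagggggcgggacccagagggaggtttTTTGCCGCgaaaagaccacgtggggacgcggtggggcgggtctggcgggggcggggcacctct
NEIL3 carried 1 CHR match, 24 bases before its start. The second UNG start carried 1 E2F match 63 bases before it and 1 CHR match, read on the opposite strand as TTCAAA, 226 bases before it, whereas the first UNG start had neither.

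Matches were counted over 300 bases, 250 before to 50 after a start, in 35116 RefSeq promoters, of which 13 belong to 8 of the members. RefSeq promoters of SMUG1 and NEIL2 were not used here. An E2F match was found in 1 of the 13 (the second UNG start) and in 3.31% of all promoters, and a CHR match in 3 of the 13 (NEIL3, the second UNG start and 1 of 3 MUTYH starts) and in 15.2% of all. The CCAAT box (CCAAT, either strand) was present in 9 of the 13 and 34.6% of all, and the GC box (GGGCGG) in 10 of the 13 and 44.95% of all. The antioxidant response element in the form TGACNNNGC was present in 2 of the 13, at NTHL1 and 1 MUTYH start, and in 13.3% of all promoters. The promoters of OGG1, MBD4, TDG, NTHL1 and NEIL1 had no E2F or CHR match of this spelling. These counts describe letters in a window and not binding. Whether the motifs bear on the changes with ILL was not tested.

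TDG and MBD4, which act on mispaired thymine, had small changes. TDG removes thymine and uracil opposite guanine and also the oxidized forms of 5-methylcytosine made by TET enzymes. It was at 38.3, 43.3 and 40.1 CPM in control and 34.8, 32.9 and 33.6 CPM in ILL libraries, so the groups did not overlap but lay close together. Its log2 fold change was -0.26 (SE 0.07 and edgeR adjusted p of 0.00186). MBD4, which joins a methyl-CpG binding domain to a thymine glycosylase, was at 36.4, 30.3 and 36.5 CPM in control and 27.1, 31.2 and 25.7 CPM in ILL libraries. The groups overlapped, since ILL replicate 2 was above control replicate 2, yet the log2 fold change of -0.30 passed the test (SE 0.09 and edgeR adjusted p of 0.00364).

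SMUG1, a uracil and 5-hydroxymethyluracil glycosylase, was the 1 member called higher with ILL. It was at 24.3, 25.6 and 27.2 CPM in control and 29.1, 27.7 and 32.6 CPM in ILL libraries, a log2 fold change of 0.21 (SE 0.08 and edgeR adjusted p of 0.0221). The groups did not overlap, but the margin between the highest control and the lowest ILL library was small. The call was lost without control replicate 1 (0.17, adjusted p = 0.111), control replicate 2 (0.21, adjusted p = 0.0606) or ILL replicate 3 (0.15, adjusted p = 0.153), and also with scaling by library size only (0.15, adjusted p = 0.113). Over all 15 alternatives its adjusted p, from edgeR, DESeq2 or limma, ranged from 0.00973 to 0.173.

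MUTYH acts after replication, when adenine has been placed opposite 8-oxoguanine. It was at 6.54, 6.43 and 5.51 CPM in control and 2.91, 2.91 and 3.60 CPM in ILL libraries, and all ILL values were under every control value. The log2 fold change of -0.97 (SE 0.19 and edgeR adjusted p of 6.5e-05) corresponds to 51.0% of control (95% confidence interval 38.9% to 66.8%), just short of the cutoff for a DEG. MUTYH passed that cutoff with scaling by library size only (-1.04), without control replicate 3 (-1.05) and without ILL replicate 3 (-1.08). OGG1, which removes 8-oxoguanine itself, was at 13.8, 12.9 and 14.1 CPM in control and at 7.97, 11.0 and 12.4 CPM in ILL libraries. The ILL values were spread more widely than the control values, and the highest of them lay just under the lowest control. Its log2 fold change was -0.38 (SE 0.13 and edgeR adjusted p of 0.0132), and without ILL replicate 1 it was -0.22 and did not pass the same edgeR test (adjusted p = 0.118).

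NTHL1, which removes oxidized pyrimidines, showed the tightest replicates of the family. Its level was 28.6, 29.8 and 28.2 CPM in control and 21.3, 21.9 and 20.9 CPM in ILL libraries, a log2 fold change of -0.43 (SE 0.08 and edgeR adjusted p of 2.8e-05). NEIL2, which prefers lesions in bubbles and single-stranded DNA, was at 5.69, 6.12 and 4.95 CPM in control and 2.86, 3.92 and 4.03 CPM in ILL libraries. Its log2 fold change of -0.63 (SE 0.20 and edgeR adjusted p of 0.00575) came without overlap between groups. NEIL1, which removes oxidized bases ahead of replication, was the least abundant member in controls, with 70, 16 and 41 counts in control and 63, 50 and 87 counts in ILL libraries. The groups overlapped, with control replicate 1 level with ILL replicate 1 at 1.80 CPM, and control replicate 2 was the lowest at 0.455 CPM. The NEIL1 log2 fold change was 0.74 with a 95% confidence interval of -0.10 to 1.57 (edgeR adjusted p of 0.104), an interval that holds both no change and a rise of more than 2-fold. Without control replicate 1 it was 1.24 and passed the test (adjusted p = 0.0187), and without control replicate 2, which held 16 counts, it was 0.36.

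**Figure D2:**
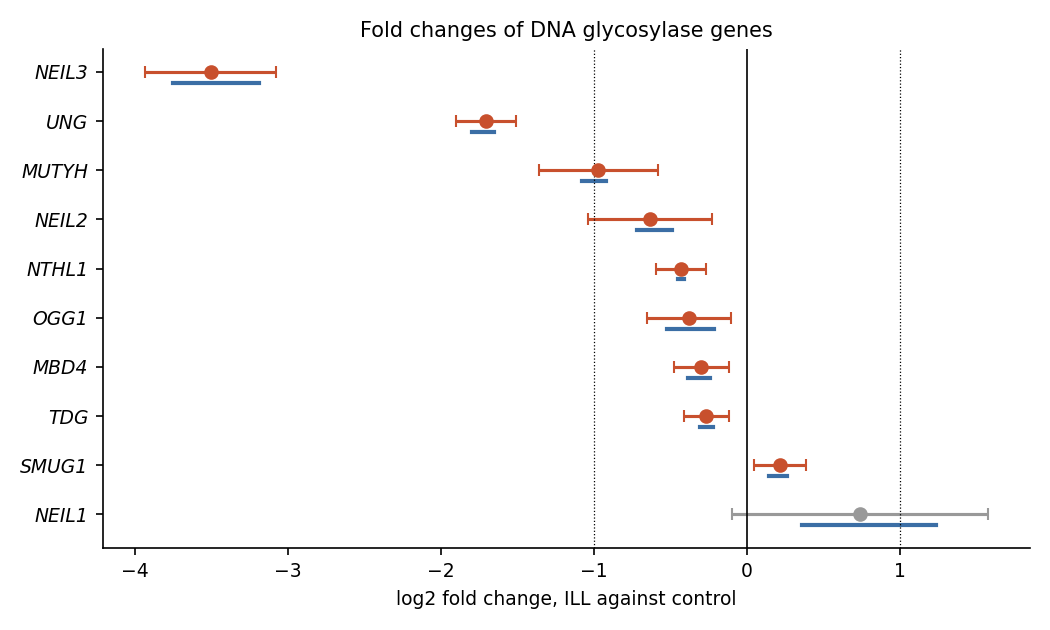
Log2 fold change of each glycosylase gene, ILL against control (x axis), with its 95% confidence interval from edgeR (orange where called, grey where not) and, in blue below it, the span of its values when each of the 6 libraries was omitted in turn. Dotted lines mark a 2-fold change. NEIL3 and UNG lie beyond it on the lower side, MUTYH at its edge, and SMUG1 and NEIL1 to the right of 0.

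Markers of dividing cells also fell. All 12 proliferation markers were DEGs lower with ILL, with log2 fold changes from -3.55 (TOP2A, a topoisomerase of mitotic chromosomes) to -1.90 (MCM5, a subunit of the replicative helicase) and a median of -3.05. MKI67, which codes for Ki-67, was at 328 ± 2.65 CPM in control and 35.5 ± 1.34 CPM in ILL libraries (SD, n = 3). The log2 fold change of NEIL3, -3.51, lay within the range of these markers, that of UNG, -1.71, lay above it, and those of the other 8 members were all -0.97 or higher. In these bulk libraries fewer dividing cells and less RNA per cell cannot be told apart, and the part of cell division in the fall of NEIL3 and UNG was not tested.

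Levels of different genes were compared per length, on the FPKM values that the authors deposited. In control libraries the order was NTHL1 (28.7 ± 0.878 FPKM, SD, n = 3), UNG (15.4 ± 0.971), TDG (12.9 ± 0.787), MBD4 (10.6 ± 1.08), SMUG1 (7.82 ± 0.417), NEIL3 (6.33 ± 0.498), OGG1 (2.89 ± 0.132), NEIL2 (2.47 ± 0.270), MUTYH (2.36 ± 0.226) and NEIL1 (0.342 ± 0.203). Among neighbours in this order, the ranges of NEIL2 and MUTYH overlapped and those of the others did not. In ILL libraries the order was NTHL1 (20.3 ± 0.401 FPKM, SD, n = 3), TDG (10.3 ± 0.350), SMUG1 (8.65 ± 0.745), MBD4 (8.19 ± 0.809), UNG (4.47 ± 0.465), OGG1 (2.12 ± 0.450), NEIL2 (1.52 ± 0.267), MUTYH (1.14 ± 0.146), NEIL1 (0.548 ± 0.152) and NEIL3 (0.529 ± 0.233). UNG thus moved from rank 2 to rank 5 and NEIL3 from rank 6 to rank 10. With ILL, SMUG1 overlapped MBD4, OGG1 overlapped NEIL2, NEIL2 overlapped MUTYH, and NEIL1 overlapped NEIL3.

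**Figure D3:**
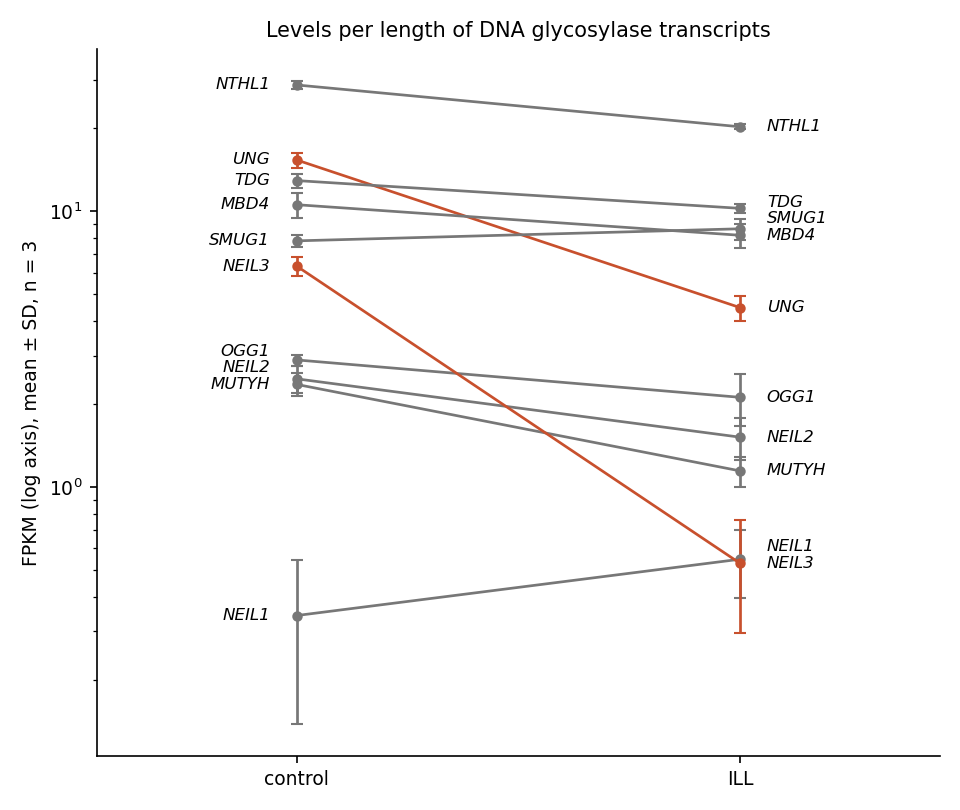
Level per length of each glycosylase transcript (y axis, FPKM on a log axis, mean ± SD, n = 3) in control and ILL libraries, with a line joining the means of each gene. The DEGs, UNG and NEIL3, are drawn in orange and cross the lines of other members on their way down, and NEIL3 ends beside NEIL1 near 0.5 FPKM.

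This order rests on the gene length used, and not only at its top. The deposited FPKM values imply a length of 1030 bases for NTHL1, while its exons in GENCODE release 29 cover 2430 bases. With the exon lengths of GENCODE in place of the implied ones, UNG (13.8 ± 0.873, SD, n = 3) stood above NTHL1 (12.2 ± 0.372) in control libraries. In ILL libraries the mean of NTHL1 (8.59 ± 0.170) was above that of MBD4 (8.14 ± 0.805), by less than the SD of MBD4. UNG was still at rank 5 with ILL, and NEIL3 fell from rank 5 to rank 9. With these lengths 1 member kept its rank in control libraries and 5 kept theirs in ILL libraries, where NEIL1 was at rank 10. A change of length affects comparisons between genes and leaves the fold change of each gene as it was.

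As a share of the summed FPKM of the family, which does not depend on how libraries are scaled, UNG went from 17.1% ± 0.851 in control to 7.75% ± 0.647 in ILL libraries and NEIL3 from 7.04% ± 0.440 to 0.916% ± 0.400 (SD, n = 3). SMUG1 went from 8.70% ± 0.375 to 14.98% ± 1.07 and TDG from 14.4% ± 0.680 to 17.8% ± 0.852, while NTHL1, at 32.0% ± 0.932 and 35.1% ± 1.29, had the largest share in both groups with the deposited FPKM values. For 7 members the 2 groups did not overlap, which for 3 libraries against 3 gives an exact two-sided permutation p of 0.1, the smallest this design allows (0.143 after adjustment over 10 members), so no share could pass a threshold of 0.05. MBD4, OGG1 and NEIL2 overlapped between groups. A lack of overlap was common in these data. On the CPM scale it held for 38.0% of all tested genes lower with ILL and for 37.5% higher. These shares rest in part on the length used for NTHL1. With GENCODE exon lengths the NTHL1 share was 20.5% in control libraries, below the 23.2% of UNG, and the change of MBD4 was 4.95 percentage points in place of 2.42, with no overlap. With NTHL1 left out of the sum, the changes of SMUG1, TDG and MBD4 were 10.3, 6.27 and 4.62 percentage points in place of 6.28, 3.39 and 2.42, and the MBD4 groups again did not overlap. The summed FPKM of the family was 89.8 ± 1.51 in control and 57.7 ± 1.18 in ILL libraries (SD, n = 3), that of the enzymes for uracil and thymine 46.7 ± 1.57 and 31.6 ± 0.531, and that of the enzymes for oxidized bases without MUTYH 40.8 ± 1.10 and 25.0 ± 0.600. Shares with ILL are thus parts of a smaller sum. The mean FPKM of TDG fell from 12.9 to 10.3 and that of NTHL1 from 28.7 to 20.3, while their shares rose. SMUG1 was at 7.82 FPKM in control and 8.65 FPKM in ILL libraries.

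**Figure D4:**
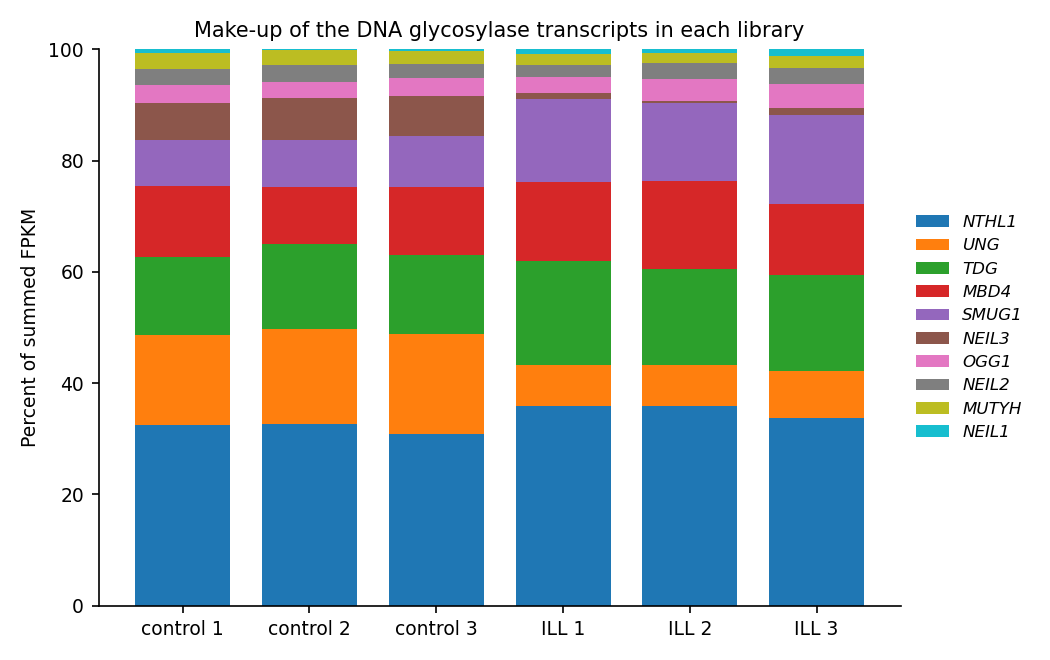
Make-up of the glycosylase transcripts, as the percent of their summed FPKM (y axis) that each gene takes in each of the 6 libraries (x axis). The UNG and NEIL3 segments are smaller in the 3 ILL libraries, and the SMUG1 and TDG segments are larger. The mean sum itself was 89.8 FPKM in control and 57.7 FPKM in ILL libraries, and TDG fell in FPKM.

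Several members lie against other genes, and the counting is not stated to use strand, so reads of overlapping genes cannot be assigned with certainty. On GRCh38, GENCODE lists 17 genes that overlap a member or start within 1000 bases of its start, of which 7 were in the count table and tested. MUTYH (chromosome 1, 45329163 to 45340470, - strand) overlaps TOE1, an RNA deadenylase on the opposite strand that starts 800 bases away. TOE1 was a DEG at 11.2 ± 1.48 CPM in control and 2.96 ± 0.404 CPM in ILL libraries (SD, n = 3), and its log2 fold change was -1.92 (edgeR adjusted p of 1.0e-10). MBD4 (chromosome 3, 129430944 to 129440179, - strand) overlaps IFT122, a ciliary transport gene that starts 143 bases away and was also a DEG, at -1.23 on the log2 scale against -0.30 for MBD4. C12orf73, which starts 96 bases from TDG (chromosome 12, 103965804 to 103988874, + strand), fell by 0.63 on the log2 scale.

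At other members the neighbour moved the other way. NTHL1 (chromosome 16, 2039815 to 2047866, - strand) fell, whereas TSC2, an inhibitor of mTOR signaling whose start lies 401 bases away on the opposite strand, rose by a log2 fold change of 0.39 (edgeR adjusted p of 3.7e-05). OGG1 (chromosome 3, 9749944 to 9788219, + strand) fell, whereas TADA3, which overlaps it on the opposite strand at 91.2 CPM in control libraries, rose by 0.38. CAMK1, also overlapping OGG1, and MAN2C1, overlapping NEIL1 (chromosome 15, 75346955 to 75357114, + strand), did not pass the test. UNG (chromosome 12, 109097574 to 109110992, + strand) and NEIL2 had no such neighbour, and those of NEIL3 (chromosome 4, 177309836 to 177362943, + strand) and SMUG1 (chromosome 12, 54121277 to 54189008, - strand) were non-coding genes not analysed here. UNG, TDG and SMUG1 have annotated pseudogenes, and how reads shared with them were counted is not given in the sources used here.

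The next steps of base excision repair were described by 2 lists. For comparison with the counts in these and the later lists, 36.9% of all tested genes were called lower and 36.2% higher. DEGs made up 11.4% (lower) and 12.5% (higher). Of 14 genes for AP sites and short-patch repair, 10 were called lower (3 of them DEGs) and 3 higher (1 DEG), with a median log2 fold change of -0.45. APEX1, the main AP endonuclease, was at 262 ± 2.27 CPM in control and 145 ± 7.91 CPM in ILL libraries (SD, n = 3), and XRCC1, the scaffold of the short patch, fell by 0.42 on the log2 scale. The DEGs lower with ILL were PARP1 and PARP2, which sense strand breaks, at log2 fold changes of -1.76 and -1.25, and TDP1, which cleans blocked 3′ ends, at -1.44. In contrast POLB, the polymerase that fills the patch of 1 nucleotide, rose by 0.40 (edgeR adjusted p of 6.5e-05), and its relative POLL rose by 0.56. APLF, a break repair factor, rose by 1.34 at 1.70 CPM or less in the group means.

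Of 16 long-patch genes, which are shared with DNA replication, 15 were called lower, 14 of them as DEGs, with a median log2 fold change of -1.86. PCNA, the sliding clamp that also binds UNG, had a log2 fold change of -2.41 and FEN1, the flap nuclease, of -2.58, while LIG1, the replicative ligase, was at 97.4 CPM in control and 24.4 CPM in ILL libraries. The lowest log2 fold change was that of POLE2, a subunit of polymerase epsilon, at -2.61, followed by RFC3, of the clamp loader, at -2.58. POLD4, the small subunit of polymerase delta, was the 1 gene called higher, at 75.6 ± 4.58 CPM in control and 162 ± 11.0 CPM in ILL libraries (SD, n = 3). Beside these medians of -0.45 and -1.86, that of the 10 glycosylases was -0.41, and the differences between lists were not tested.

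**Figure D5:**
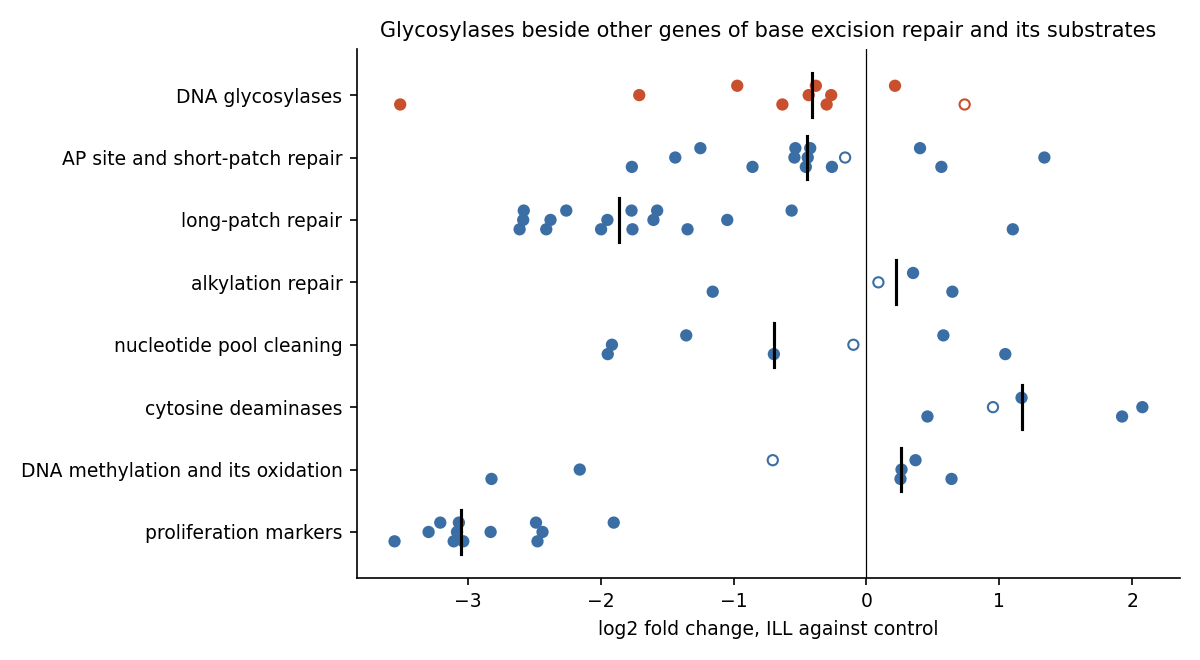
Log2 fold change, ILL against control (x axis), of each tested gene in the glycosylase family (orange) and in 7 lists of related genes (blue, y axis). Filled points were called at an adjusted p under 0.05, open points were not, and black bars are medians: -0.41 for the glycosylases, -1.86 for long-patch repair and -3.05 for the proliferation markers.

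MPG, the alkyladenine glycosylase that is not in this family list, rose with ILL, from 103 ± 6.76 CPM in control to 132 ± 4.63 CPM in ILL libraries (SD, n = 3), a log2 fold change of 0.35 (edgeR adjusted p of 8.1e-06). Of the 4 genes of a list for alkylation repair, MPG and ALKBH3 were called higher and 1 was not called. ALKBH2, a dioxygenase that reverses alkylation in duplex DNA, was a DEG lower, at -1.16.

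Another list held genes that keep damaged or wrong nucleotides out of DNA. Of these 7 genes, 4 were called lower (3 DEGs) and 2 higher (1 DEG), beside 36.9% and 36.2% of all tested genes. DUT, the dUTPase that limits the uracil on which UNG and SMUG1 act, was at 61.5 ± 6.16 CPM in control and 16.3 ± 0.412 CPM in ILL libraries (SD, n = 3), a log2 fold change of -1.91 (edgeR adjusted p of 1.1e-16) beside -1.71 for UNG. NUDT1, which removes 8-oxo-dGTP before it can be built in, had a log2 fold change of -1.36, beside -0.38 for OGG1 and -0.97 for MUTYH. In contrast NUDT18, which acts on 8-oxoguanine diphosphates, rose by 1.04 and SAMHD1, a dNTP hydrolase, by 0.58.

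Cytosine deaminases turn cytosine into the uracil that UNG removes. Of 9 such genes 5 were tested, of which 4 were called higher, 3 as DEGs, and 0 lower. APOBEC3B, a nuclear deaminase, was at 2.86 ± 0.386 CPM in control and 10.9 ± 0.367 CPM in ILL libraries (SD, n = 3), a log2 fold change of 1.92 (edgeR adjusted p of 6.2e-11), and APOBEC3F rose by 2.08. APOBEC3G, at 14 to 57 counts in a library, rose by 1.17, and APOBEC3C by 0.46. APOBEC1 had 0 counts in every library, and reads of the APOBEC3 genes can be shared because the genes are close relatives.

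Among genes that write, copy or oxidize 5-methylcytosine, the base whose damage TDG and MBD4 repair, DNMT1 and UHRF1, which copy methylation at the replication fork, were DEGs lower with ILL at -2.16 and -2.82. TET2 and TET3, which make the oxidized bases that TDG removes, rose by 0.37 and 0.26, and DNMT3A and DNMT3B, which write methylation anew, rose by 0.26 and 0.64. TET1 (1.98 CPM in control and 1.22 CPM in ILL libraries) did not pass the test at an adjusted p of 0.0717 from edgeR's quasi-likelihood test.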

How the data were processed

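RNA-seq libraries of HCCC9810 cells, 3 with ILL and 3 with vehicle, were assigned to groups by the sample labels. The deposited tables hold raw counts of reads for each gene symbol and, beside them, FPKM values made by the authors. The submitters' processing notes name GRCh38 and DESeq2, and the aligner, counting program, annotation and use of strand are not given in the sources used here. Each deposited FPKM value was found to be the count over a gene length (a whole number) and the library total, within 0.1% for 100% of nonzero values.

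Counts were filtered with filterByExpr, scaled by TMM and tested for all genes together in edgeR 4.0.16 (R 4.3.3) with the quasi-likelihood test and Benjamini-Hochberg adjustment. The biological coefficient of variation was 0.0717. No pair of replicates matched within counting error (chi-square per degree of freedom 5.09 to 11.5), so none was treated as a library deposited again, which does not show that they came from separate cultures. Confidence intervals are at 95%.

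The members and gene lists were chosen with earlier results of these data known, so counts over lists are descriptions. The rule named all members, called neighbours, up to 3 DEGs with the largest and 3 with the smallest change per list (mean of at least 1 CPM, no overlap between groups), and PCNA, APEX1, XRCC1, LIG1, FEN1, POLB, PARP1, MPG, DUT, NUDT1, APOBEC3B and MKI67. MCM5, POLL, ALKBH3, SAMHD1, APOBEC3C, APOBEC3G, TET1, TET2, TET3, DNMT3A, DNMT3B and neighbours not called were named after their values were seen. Some genes of the lists are counted but not reported by name here. Gene positions are from GENCODE release 29 and promoters from RefSeq.

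Alternatives were other scaling (DESeq2 size factors or library size only), other filters (none, or a minimum of 10 counts per library), the Wald test of DESeq2 1.42.0, a replicate block, omission of single libraries, and limma 3.58.1 on log2 of FPKM plus 1 or plus 0.1. Exact permutation tests of shares were two-sided.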

Additional observations from a re-analysis of the deposited data

How the results depend on the processing

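The count of 8 members called lower was within 1.5 times itself in all 15 alternatives, and the directions of all 10 members held wherever they were tested. The count called higher, 1 (SMUG1), was 0 with library size only and in the 3 limma fits, and from 0 to 1 without 1 library; without control replicate 1 the member called was NEIL1, also the 1 DEG higher there (0 to 1 over these fits). SMUG1 had log2 fold changes of 0.13 to 0.14 in the limma fits. DEGs lower were 4 with a fold change under 1/1.5, and 3, with MUTYH added, with library size only and without control replicate 3 or ILL replicate 3. With a pseudocount of 1 FPKM, NEIL3 was at -2.27 and MUTYH at -0.65, as a larger pseudocount shrinks low genes. In the order of levels, 8 to 10 members kept their rank without 1 ILL library and 10 without 1 control library. With GENCODE exon lengths, an alternative chosen after seeing the data, 1 member kept its rank in control and 5 in ILL libraries. The share of NEIL2, lower by 0.125 percentage points with ILL, was higher by 0.0351 with those lengths and from -0.30 to 0.12 without 1 library (0.12 without ILL replicate 1). The replicate numbers did not pair the libraries (correlations of deviations -0.0218 to 0.0107), and with a replicate block NEIL3 was at -3.53, UNG at -1.71 and NEIL1 at 0.86 (adjusted p = 0.0519 from edgeR), with 9 members called as before. Among the related lists, cytosine deaminases called higher numbered 2 in the limma fits with a filter, and genes of DNA methylation called higher numbered 2 in all limma fits, against 4 each. Low counts limit NEIL1 and the ILL level of NEIL3.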
